A study of Mus musculus with 6 samples.

Results

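The genes described are those of the insulin and insulin-like growth factor (IGF) receptors and of the mTOR complexes, with the AKT kinases between them and the TSC complex that restrains mTOR. They are *Igf1r*, *Insr*, *Akt1*, *Akt2*, *Mtor*, *Rptor*, *Rictor*, *Mlst8*, *Tsc1* and *Tsc2*, chosen by symbol, and all 10 were found by their Ensembl identifier among the 55774 genes of the deposited table. RNA was sequenced from wild-type mouse blastocysts, grown from embryos of ICR females in Chatot-Ziomek-Bavister (CZB) medium. The medium of 3 pools held oviductal extracellular vesicles from women with endometriosis (oEV-EMT), and that of the other 3 held such vesicles from women without it (oEV-ctrl). Each pool of 10 blastocysts gave 1 library. The labels describe the oEV-ctrl donors as women with uterine fibroids, whereas the methods describe cervical intraepithelial neoplasia. All 6 pools received human vesicles, and a culture without vesicles is not analysed here. Nothing in the labels ties a pool to single donors or separate cultures, so the p-values measure the spread between these pools, which may be technical.

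Insulin and the IGFs bind receptor tyrosine kinases at the cell surface, which recruit phosphoinositide 3-kinase (PI3K) and through it activate AKT. The mTOR kinase works in a pair of complexes. In mTORC1 the subunit raptor brings in substrates that drive protein synthesis and ribosome production, and in mTORC2 the subunit rictor directs the kinase to AKT. The TSC complex keeps mTORC1 off by switching off the small GTPase RHEB, and AKT relieves this brake. In the preimplantation embryo insulin and IGFs are known to promote growth, mTOR is needed for the expansion of the inner cell mass and trophoblast, and mouse blastocysts in which mTOR is inhibited can enter a paused state resembling diapause.

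Values are FPKM: fragments counted for a gene, divided by its length in kilobases and by the library total in units of 1000000. The comparison of the groups took in the 11924 genes that reached 1 FPKM in 3 or more libraries, 9 of the 10 described here among them. *Igf1r* stayed below that level and is given by its values only. Read totals are not given. In genes with a single annotated transcript the low values fell on repeated steps, and if the most common step was 1 fragment, 1 FPKM in 1 kilobase stood for 17.8 fragments in the shallowest library (oEV-ctrl 1) and 36.8 in the deepest (oEV-EMT 1). This is a rough estimate, since only 19.1% to 27.8% of the low values in these genes lay within 0.02 of a multiple of 0.5 steps. All 8 trophectoderm markers, 7 epiblast markers and 6 primitive endoderm markers that were looked up passed the same filter. Of the markers of other cells that were looked up, *Ptx3* and *Fshr* (cumulus cells), *Foxj1* (oviduct epithelium) and *Hbb-bs* and *Ptprc* (blood cells) were listed at 0 in every library. Others of these lists were not. *Zp2* (oocyte) had 1.51 to 5.23 FPKM, *Amhr2* (cumulus cells) 0.464 to 2.07 FPKM and *Hba-a1* (blood cells) 0.472 to 2.22 FPKM. All sums of markers given here were taken without scaling between libraries. The summed FPKM of the 7 epiblast markers was 106 to 147 in oEV-EMT and 59.2 to 103 in oEV-ctrl. These did not overlap, but the gap between the groups was narrow, and *Sox2* of that list had a log2 fold change of -0.32. The sums overlapped for trophectoderm, at 3136 to 4746 against 3082 to 4836, and for primitive endoderm, at 135 to 262 against 180 to 236. Abundant genes dominated these sums: *Krt8* and *Krt18* averaged 1185 and 2573 FPKM, and *Dab2* 171 FPKM. Gene by gene, 2 of the 6 primitive endoderm markers were higher in oEV-EMT without overlap, or 33.3%, against 18.1% of all tested genes. These were *Gata4* (log2 fold change 0.82) and *Sox7* (0.52). *Sox17* (0.95), *Pdgfra* (0.08), *Gata6* (-0.19) and *Dab2* (-0.26) overlapped, and so did all 8 trophectoderm markers. The summed FPKM of the 5 oocyte markers (2 past the filter) and the 5 cumulus markers (1 past the filter) was higher in all oEV-EMT libraries, at 3.86 to 6.93 against 2.35 to 3.31 and at 1.32 to 2.24 against 0.536 to 0.788. *Zp2* on its own overlapped between the groups. Dividing by the median-of-ratios factors, 1.09 in oEV-EMT 2 and 0.916 in oEV-ctrl 2, closes the gap in the oocyte sum. The 4 oviduct markers (1 past the filter, *Epcam*) and the 4 blood cell markers (1 past the filter) overlapped. The oviduct sum was nearly all *Epcam*, at 301 to 559 FPKM, with *Ovgp1* and *Pax8* at no more than 0.296 and 0.148 FPKM. The part of these markers in the results below was not tested. Since whole blastocysts were pooled, fewer cells of a type and less RNA per cell cannot be told apart.

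*Igf1r* (ENSMUSG00000005533, chromosome 7 of GRCm38, 67952827 to 68233668, plus strand) encodes the receptor for IGF1 and IGF2. It was listed at 0.429, 0.251 and 0.204 FPKM in oEV-EMT 1, 2 and 3 and at 0.287, 0.244 and 0.198 FPKM in oEV-ctrl 1, 2 and 3. The highest value lay in oEV-EMT 1 and the lowest in oEV-ctrl 3, the groups overlapped, and their means of log2(FPKM + 1) differed by 0.06, which was not tested. With its longest transcript of 11.4 kb these levels stand, by the same estimate, for 58.2 to 180 fragments per library at most. *Insr* (ENSMUSG00000005534, chromosome 8, 3122061 to 3279617, minus strand), the insulin receptor gene, had 1.97, 1.14 and 1.11 FPKM in oEV-EMT and 1.41, 1.17 and 1.16 FPKM in oEV-ctrl. Here too oEV-EMT 1 was highest, while the other oEV-EMT libraries lay just under the lowest oEV-ctrl library. *Insr* was above *Igf1r* in each of the 6 libraries, on average 5.001-fold (geometric mean). The log2 fold change of *Insr* on log2(FPKM + 1) was 0.08 (standard error 0.21; 95% interval -0.39 to 0.55; limma, Benjamini-Hochberg adjusted p = 0.875).

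*Akt1* (ENSMUSG00000001729, chromosome 12, 112653821 to 112674884, minus strand) had the highest mean level of the 10 genes. Its FPKM was 12.0, 9.85 and 6.70 in oEV-EMT and 10.6, 8.27 and 9.05 in oEV-ctrl. The oEV-EMT libraries thus held both the highest and the lowest value, and the log2 fold change was -0.0011 (standard error 0.25; 95% interval -0.55 to 0.55; limma adjusted p = 0.999). *Akt2* (ENSMUSG00000004056, chromosome 7, 27591552 to 27640826, plus strand), the isoform best known from insulin-stimulated glucose uptake, had 7.07, 4.95 and 3.93 FPKM in oEV-EMT and 5.75, 3.49 and 4.40 FPKM in oEV-ctrl. Its groups overlapped as well, and the log2 fold change was 0.18 (standard error 0.26; limma adjusted p = 0.771). The processed pseudogene *Akt2-ps* shares 9.76% of the 50-base stretches of *Akt2* and was listed at 0.285 to 0.583 FPKM, so some reads could belong to either.

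*Mtor* (ENSMUSG00000028991, chromosome 4, 148448611 to 148557683, plus strand) encodes the kinase of both mTOR complexes. It had 5.003, 8.48 and 8.85 FPKM in oEV-EMT and 6.40, 6.40 and 7.76 FPKM in oEV-ctrl. In this gene oEV-EMT 1 was the lowest library, the reverse of its place in the receptors and AKT genes. The log2 fold change was 0.08 (standard error 0.25; 95% interval -0.48 to 0.63; limma adjusted p = 0.905). *Mlst8* (ENSMUSG00000024142, chromosome 17, 24473551 to 24479078, minus strand) encodes the WD-repeat subunit that binds the kinase domain in both complexes. Its FPKM was 3.529, 5.16 and 4.26 in oEV-EMT and 1.75, 3.531 and 2.85 in oEV-ctrl. The groups touched only through oEV-EMT 1, which lay marginally under oEV-ctrl 2. The log2 fold change of *Mlst8* was 0.54 (standard error 0.25; 95% interval -0.02 to 1.10), with an unadjusted p of 0.0588 and an adjusted p of 0.343 from limma. It was the largest of the 9 genes tested without scaling between libraries, but after upper quartile scaling it was 0.34 and that of *Tsc2*, -0.45, was larger in size. Its exons overlap those of *Bricd5* on the opposite strand over 22.5% of their length, and the library kit does not mark strand, but *Bricd5* was listed at no more than 0.0589 FPKM.

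*Rptor* (ENSMUSG00000025583, chromosome 11, 119602905 to 119899576, plus strand), which encodes raptor, had 1.97, 1.77 and 1.21 FPKM in oEV-EMT and 1.53, 1.01 and 1.35 FPKM in oEV-ctrl. Its log2 fold change was 0.20 (standard error 0.21; limma adjusted p = 0.677). *Rictor* (ENSMUSG00000050310, chromosome 15, 6708379 to 6800401, plus strand) had 9.09, 3.49 and 4.16 FPKM in oEV-EMT and 2.81, 3.26 and 4.38 FPKM in oEV-ctrl. oEV-EMT 1 stood far above the rest, and the other 2 libraries of that group lay inside the range of oEV-ctrl. The log2 fold change of 0.47 (standard error 0.31; 95% interval -0.22 to 1.17; limma adjusted p = 0.495) was 0.12 without oEV-EMT 1.

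The stretches of 250 bases before the RefSeq start sites (GRCm38.p6) of *Mtor*, *Rictor* and *Mlst8* are shown for the shared kinase and for the tested genes with the largest fold changes without scaling between libraries. Capitals mark GGGCGG, the core of the GC box bound by SP1-type factors, on either strand. They lie at chr4:148448332-148448581 (plus strand), chr15:6708131-6708380 (plus strand) and chr17:24479079-24479328 (minus strand).
Mtor: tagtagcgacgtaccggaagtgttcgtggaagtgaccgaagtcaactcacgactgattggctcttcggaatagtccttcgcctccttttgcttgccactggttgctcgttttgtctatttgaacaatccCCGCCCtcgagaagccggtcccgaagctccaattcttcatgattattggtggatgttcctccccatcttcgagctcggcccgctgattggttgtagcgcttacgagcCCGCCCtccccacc
Rictor: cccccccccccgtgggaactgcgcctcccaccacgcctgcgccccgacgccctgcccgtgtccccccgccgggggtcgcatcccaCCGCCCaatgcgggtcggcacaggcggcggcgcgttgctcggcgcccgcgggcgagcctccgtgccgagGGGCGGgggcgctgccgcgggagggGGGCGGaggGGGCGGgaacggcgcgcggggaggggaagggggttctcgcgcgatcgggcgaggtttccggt
Mlst8: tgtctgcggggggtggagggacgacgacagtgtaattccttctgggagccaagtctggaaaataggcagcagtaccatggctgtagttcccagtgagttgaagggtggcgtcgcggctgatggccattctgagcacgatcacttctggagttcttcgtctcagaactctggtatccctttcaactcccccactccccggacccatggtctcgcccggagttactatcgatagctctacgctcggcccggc
GC made up 54.4% of the window of *Mtor*, 81.2% of that of *Rictor* and 57.6% of that of *Mlst8*, with 19, 40 and 15 CG dinucleotides. GGGCGG was found 2 times at *Mtor*, 4 times at *Rictor* and 0 times at *Mlst8*. RefSeq gave 13 such windows for 9 of the 10 genes, all but *Insr*. They held a median of 15 CG dinucleotides, against 6 over all 32851 mouse windows, and 5 of the 13 held GGGCGG, which 32.7% of all windows did. TATAAA, the TATA box core, was found in 0 of the 13 on either strand and in 12.4% of all windows, and CCAAT in 2 of the 13 and in 33.8% of all. These counts describe letters in the windows and say nothing of factors bound there.

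*Tsc1* (ENSMUSG00000026812, chromosome 2, 28641228 to 28691167, plus strand) encodes hamartin, which stabilizes the complex. Its FPKM was 2.27, 1.98 and 0.700 in oEV-EMT and 1.10, 0.890 and 1.78 in oEV-ctrl. *Tsc2* (ENSMUSG00000002496, chromosome 17, 24595816 to 24632630, minus strand) encodes tuberin, the part that acts on RHEB, and had 10.6, 6.32 and 3.08 FPKM in oEV-EMT against 7.67, 7.68 and 6.14 FPKM in oEV-ctrl. In both genes the oEV-EMT libraries enclosed the whole range of oEV-ctrl, and *Tsc2* had the widest spread of the 10 genes, 3.43-fold between oEV-EMT 1 and oEV-EMT 3. The log2 fold change was 0.20 (standard error 0.28; limma adjusted p = 0.765) for *Tsc1* and -0.21 (standard error 0.34; 95% interval -0.98 to 0.55; limma adjusted p = 0.795) for *Tsc2*. The exons of *Tsc2* and of *Pkd1* on the opposite strand overlap over 7.20% of those of *Tsc2*, and *Pkd1* was listed at no more than 0.265 FPKM.

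**Figure D1:**
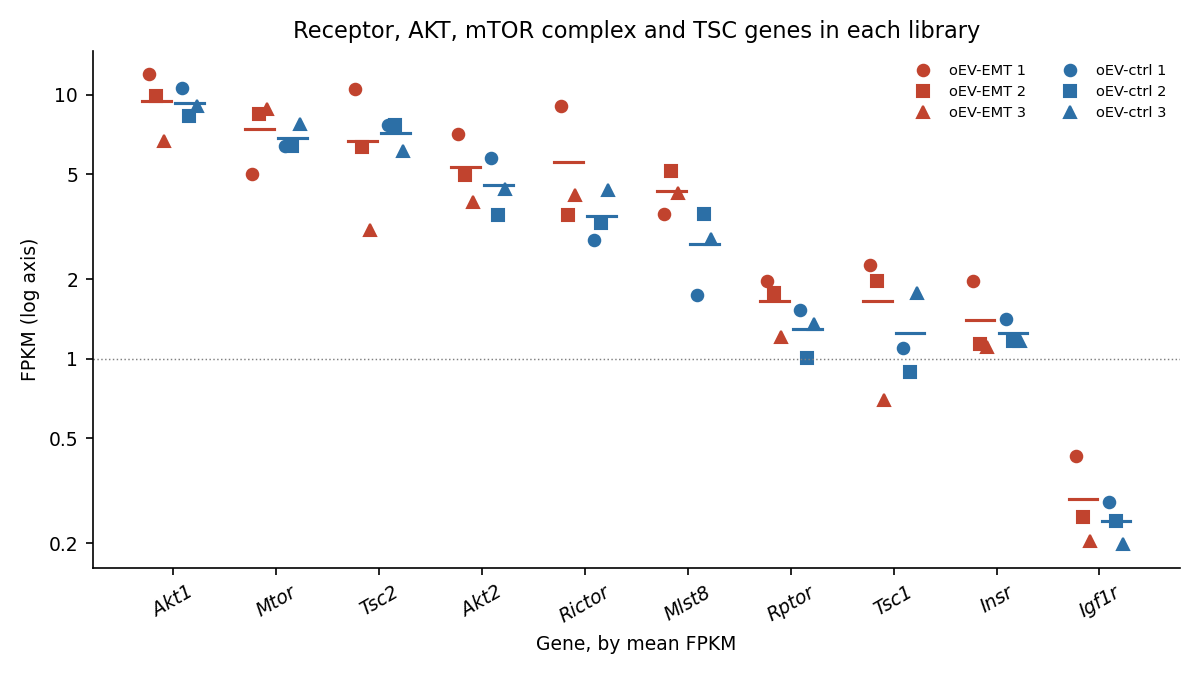
FPKM on a log axis of the 10 genes in each library, ordered by mean level, with symbols for the 3 oEV-EMT and 3 oEV-ctrl libraries, short lines for the group means and a dotted line at 1 FPKM. The groups overlap in every gene, and oEV-EMT 1 (red circles) is the highest library in 8 of the 10.

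Read by level, the 10 genes stood in the order *Akt1*, *Mtor*, *Tsc2*, *Akt2*, *Rictor*, *Mlst8*, *Rptor*, *Tsc1*, *Insr* and *Igf1r*, from a mean of 9.41 FPKM to one of 0.269 over the 6 libraries. The median of all tested genes was 7.74 FPKM, so that *Akt1* alone lay above it. Only a pair of steps in this order held in all 6 libraries, from *Mlst8* to *Rptor* (2.32-fold) and from *Insr* to *Igf1r*. *Akt1* was above *Mtor* and *Tsc2* above *Akt2* in 5 of the 6, and *Akt2* was above *Rictor* in 4 of the 6. The neighbours *Mtor* and *Tsc2*, *Rictor* and *Mlst8*, *Rptor* and *Tsc1*, and *Tsc1* and *Insr* changed places in 3 of the 6 libraries and did not differ in level beyond their spread.

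Between the groups, 0 of the 9 tested genes passed, where passing takes an adjusted p no higher than 0.05 and a change of 1 or more on the log2 scale in either direction, and 0% of all tested genes did (limma). At an unadjusted p of at most 0.05 the number was again 0 of 9, against 15.4% of all tested genes. In 0 of the 10 genes did all oEV-EMT values lie on one side of all oEV-ctrl values, against 22.4% of all tested genes, 18.1% on the higher and 4.34% on the lower side. The log2 fold changes ran from -0.21 in *Tsc2* to 0.54 in *Mlst8*. Their median was 0.18, beside 0.17 over all tested genes, so relative to all genes it was 0.01, with 5 genes above and 4 below. The change was above 0 in 7 of the 9 and in 70.1% of all tested genes, and after median-of-ratios or upper quartile scaling the median of all genes was 0.01 or -0.05. With the median of all genes in the unscaled data subtracted, *Mlst8* stood at 0.37, *Rictor* at 0.30, *Akt1* at -0.17 and *Tsc2* at -0.38.

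**Figure D2:**
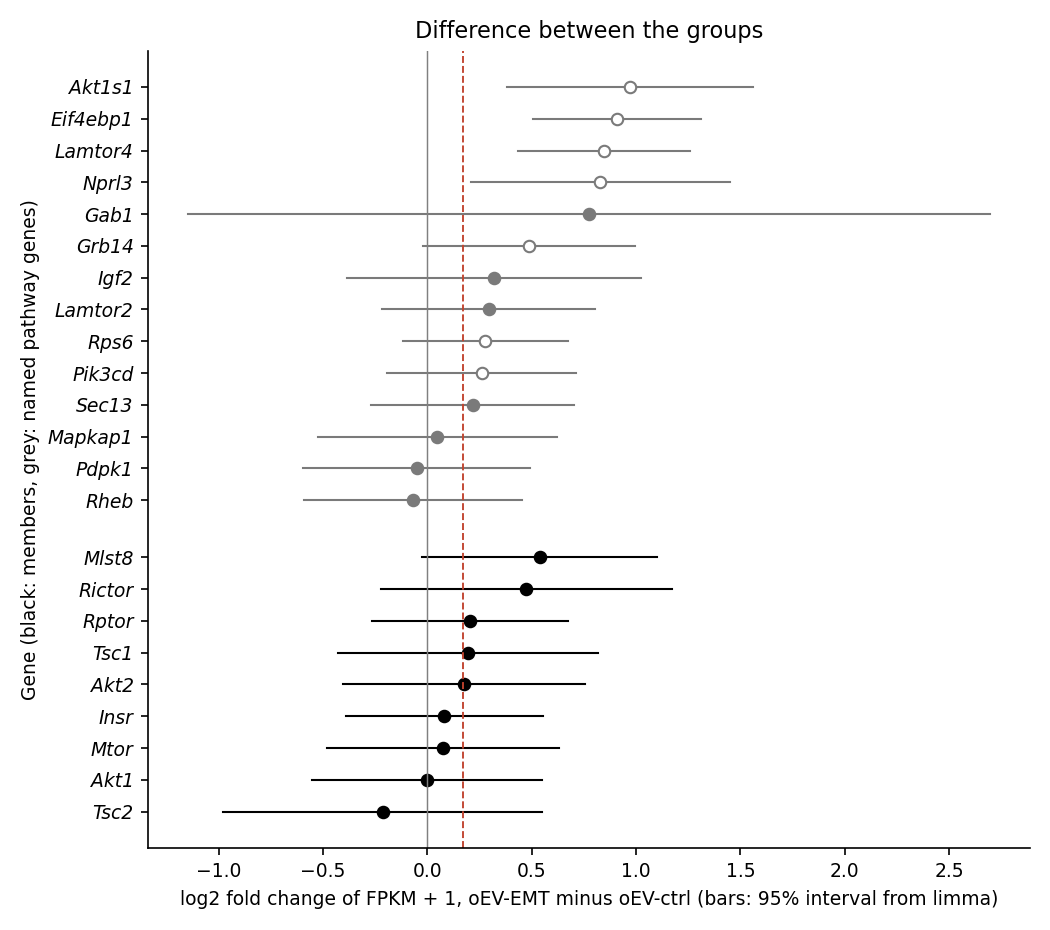
Log2 fold change between the groups on log2(FPKM + 1) with its 95% interval from limma, for the 9 tested genes (black) and the named pathway genes (grey). The solid line is 0 and the dashed line the median of all tested genes, 0.17. Open circles mark genes whose groups do not overlap, and every black interval includes 0.

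The count of separated genes depended on single libraries. Without oEV-EMT 1, the groups no longer overlapped in *Insr* (lower in oEV-EMT), *Mtor* and *Mlst8* (higher), 3 of the 9 against 39.7% of all tested genes. Without oEV-EMT 3 they separated in *Rptor* and *Tsc1* (36.8% of all), without oEV-ctrl 2 in *Mlst8* (28.4%) and without oEV-ctrl 3 in *Rictor* (33.7%). With each of these libraries left out, the share of the 9 genes that separated lay under that of all genes. *Mlst8* also separated when each library was scaled to a sum of 1000000, where 7 of the 10 genes passed the filter and 26.0% of all genes separated. That sum leaned on 1 abundant unannotated entry: the scaling factor of oEV-ctrl 1 was 1.55 with it and 1.06 without it. With this entry left out of the sum, 0 of the described genes separated, against 21.1% of all tested genes.

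Transcript length moved with these library differences. A long mRNA was typical of the set: 7 of the 10 genes have an annotated transcript of at least 6 kb, and the median longest transcript was 7.15 kb, against 2.67 kb over the 11631 tested genes with a length. For each library the deviation of log2(FPKM + 1) from the mean of the 6 libraries was taken, and its median was followed over classes of length. In oEV-EMT 1 it rose from -0.01 in transcripts under 1 kb to 0.28 between 6 and 8 kb and 0.29 from 8 kb on. In oEV-EMT 3 it went the other way, from 0.09 through -0.19 to -0.22, while oEV-EMT 2 stood at 0.06 under 1 kb, at 0.23 between 1 and 2 kb and at -0.09 and -0.11 in the long classes. The oEV-ctrl libraries lay between -0.03 and 0.06 in both long classes, and between 1 and 2 kb oEV-ctrl 1 was at -0.16, oEV-ctrl 2 at -0.22 and oEV-ctrl 3 at -0.02.

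The genes described here followed that order in most cases. oEV-EMT 1 held the highest value of all libraries in 8 of the 10 genes, against 37.4% of all tested genes and 53.6% of those between 6 and 8 kb. Within oEV-EMT, oEV-EMT 3 was the lowest library in 7 of the 10. The share of all tested genes was not counted for this. The median deviation of all tested genes was also lowest in oEV-EMT 3, among the oEV-EMT libraries, in each class of length from 2 kb on. The highest deviations in oEV-EMT 1 were those of *Rictor* and *Tsc2*, at 0.95 and 0.61, and *Akt2*, *Tsc1*, *Insr* and *Akt1* followed at 0.47, 0.46, 0.36 and 0.33. *Tsc2* was at -0.89 in oEV-EMT 3. *Mtor*, with a transcript of 8.56 kb, went against the order, at -0.42 in oEV-EMT 1 and 0.29 in oEV-EMT 3. So did *Mlst8*, at 0.05 in oEV-EMT 1 and 0.26 in oEV-EMT 3. oEV-EMT 1 was also the deepest library by the estimate from steps, and the part of length and depth in these differences was not tested. Among all tested genes of 6 to 8 kb, 6.16% were separated with higher values in oEV-EMT and 5.18% with lower values, as against 24.3% and 2.62% between 1 and 2 kb. When the trend against length was removed from each library, the median of all genes also moved, from 0.17 to 0.0073. Relative to that median the log2 fold change was then 0.49 in *Rictor*, 0.38 in *Mlst8*, -0.25 in *Akt1* and -0.27 in *Tsc2*. Before the removal the relative values were 0.30, 0.37, -0.17 and -0.38. This alternative was chosen after seeing the data, and 0 of the 9 genes passed the thresholds (limma).

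**Figure D3:**
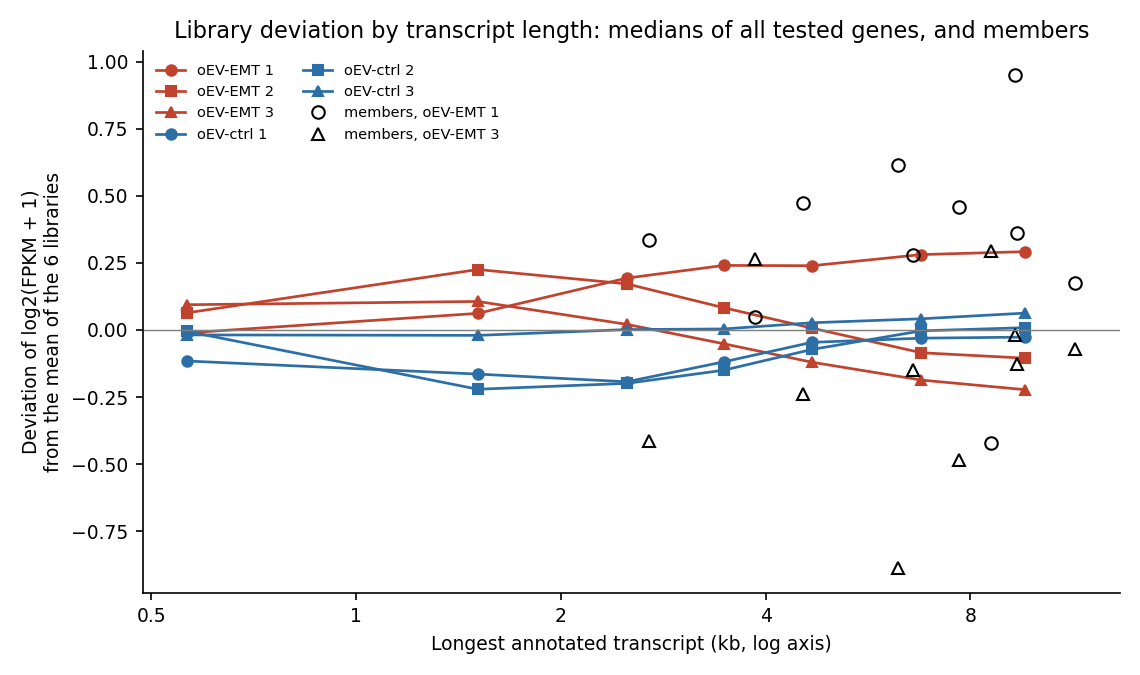
Deviation of log2(FPKM + 1) of each library from the mean of the 6 libraries against the longest annotated transcript (kb, log axis). Lines join the medians of all tested genes in 7 classes of length, and black open symbols are the 10 described genes in oEV-EMT 1 (circles) and oEV-EMT 3 (triangles). The line of oEV-EMT 1 rises to 0.29 and that of oEV-EMT 3 falls to -0.22 in the longest class, and *Mtor* is the circle at -0.42.

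A ratio of a pair of genes within a library does not depend on how the libraries are scaled against each other. It can still take in library differences by transcript length where the partners differ in length, as *Mlst8* (3.86 kb) and *Mtor* (8.56 kb) do. The median log2 fold change of all tested genes was 0.18 between 3 and 4 kb and -0.02 from 8 kb on. The part of length in the ratios was not tested. The ratio of *Igf1r* to *Insr* was the steadiest, with log2 values of -2.20, -2.18 and -2.45 in oEV-EMT and -2.30, -2.26 and -2.55 in oEV-ctrl. The difference between the groups was 0.10 (exact two-sided permutation test over libraries, p = 0.5). *Akt1* exceeded *Akt2* in all 6 libraries, by 1.69 to 2.37 times. Its log2 ratio to *Akt2* had a mean of 0.84 ± 0.13 over the oEV-EMT and 1.06 ± 0.18 over the oEV-ctrl libraries (SD, n = 3 each), a difference of -0.22 (exact permutation test, p = 0.2).

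Within the mTOR complexes, the log2 ratio of *Rptor* to *Rictor* was -2.20, -0.98 and -1.78 in oEV-EMT and -0.88, -1.69 and -1.70 in oEV-ctrl. Transcripts of the mTORC2 subunit were thus the more abundant per length in each library, and the groups did not differ beyond their spread (difference -0.23; exact permutation test, p = 0.5). The log2 ratio of *Mlst8* to *Mtor* was -0.50, -0.72 and -1.06 in oEV-EMT and -1.87, -0.86 and -1.44 in oEV-ctrl. Its difference was 0.63, from 0.39 without oEV-ctrl 1 to 0.90 without oEV-ctrl 2, and the groups overlapped through oEV-EMT 3 and oEV-ctrl 2 (exact permutation test, p = 0.2). For *Tsc1* to *Tsc2* the log2 ratio was -2.01 ± 0.29 in oEV-EMT and -2.57 ± 0.69 in oEV-ctrl (SD, n = 3 each), a difference of 0.56 (exact permutation test, p = 0.3), from 0.29 without oEV-ctrl 2 to 0.95 without oEV-ctrl 3. Adjusted over the 5 ratios every p was 0.5, and 3 libraries against 3 cannot give an unadjusted p below 0.1.

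**Figure D4:**
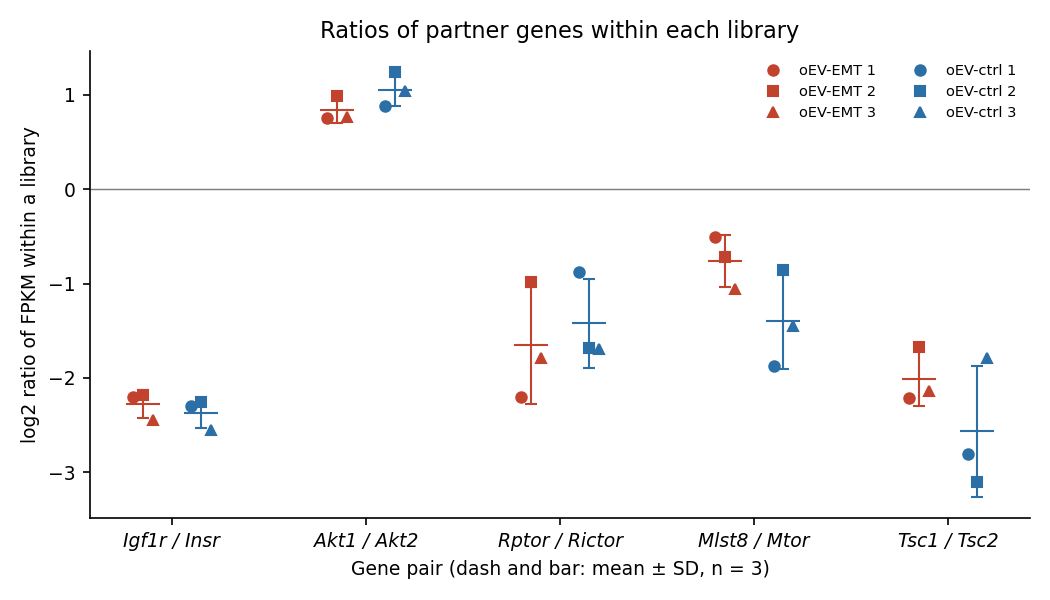
Log2 ratio of FPKM within a library for 5 pairs of partner genes, with a symbol per library and the mean ± SD (n = 3) of each group. *Akt1* lies above *Akt2* in each library, the other 4 ratios are below 0, and the groups overlap in all 5.

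Beyond these genes, 91 other genes of the insulin, PI3K and mTOR pathway were listed by role, and 67 of them were tested. Of the 67, 0 passed the thresholds (limma), with adjusted p-values from 0.105 upward. At an unadjusted p of at most 0.05, 11 were higher in oEV-EMT and 2 lower, against 12.8% and 2.55% of all tested genes. The groups were separated in 14 with higher values in oEV-EMT, or 20.9%, and in 1 with lower values, or 1.49%, close to the 18.1% and 4.34% of all tested genes. This balance moved with the scaling, with median-of-ratios scaling to 9 higher and 5 lower, where all tested genes had 9.82% and 10.3%. It also moved with single libraries, to 18 and 13 without oEV-EMT 1, where all tested genes had 27.2% and 12.6%. The 1 lower gene was *Sos1*, an exchange factor that activates RAS, at -0.40 (picked after its values were seen). The median log2 fold change of the list was 0.29, or 0.12 relative to all genes.

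**Figure D5:**
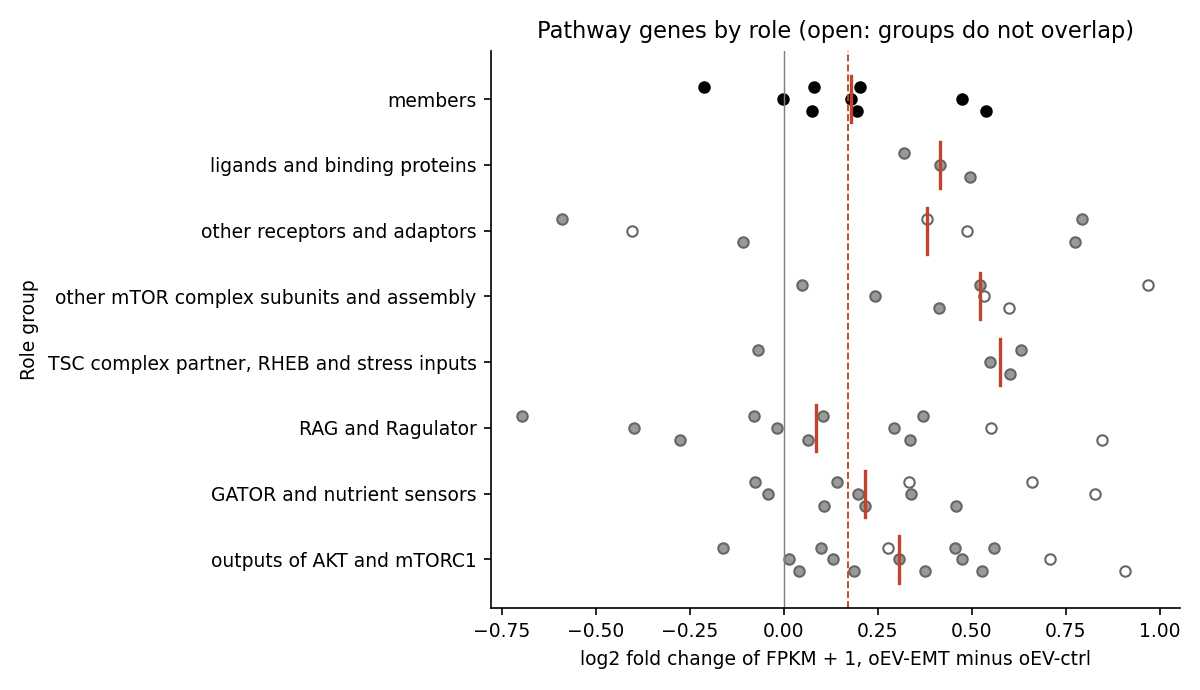
Log2 fold change on log2(FPKM + 1) of the 9 tested core genes (labelled members) and of 59 of the 67 tested pathway genes, in 7 role groups (the group around PI3K is not drawn), with a short line at each group's median. The dashed line is the median of all tested genes, 0.17, and open circles mark the 13 higher and 1 lower of these pathway genes whose groups do not overlap.

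The named pathway genes are the most abundant of each role and, where there was one, the separated gene with the largest change, so the latter were picked for their size and their values are a description. Among ligands, *Ins1* and *Ins2*, the insulin genes, were listed at 0 in all libraries. *Igf2*, the most abundant ligand, had 4.96, 1.57 and 2.64 FPKM in oEV-EMT and 2.84, 2.10 and 1.41 FPKM in oEV-ctrl. It shares 62.1% of its 50-base stretches with other listed genes, and 61.2% with *Gm49394*, which was listed at 0 in all libraries. The insulin receptor substrates were hardly present, with *Irs1* and *Irs4* at no more than 0.0123 and 0.00431 FPKM and *Irs2* at no more than 0.113 FPKM. *Gab1*, a docking protein for receptor tyrosine kinases, was the most abundant adaptor, with 6.46 to 12.0 FPKM in 5 libraries and 0.551 FPKM in oEV-ctrl 3. *Grb14*, an adaptor that inhibits the insulin receptor, had 2.39, 3.999 and 2.69 FPKM in oEV-EMT and 1.81, 1.56 and 2.15 FPKM in oEV-ctrl (limma adjusted p = 0.342).

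Between receptor and AKT, *Pdpk1*, the kinase PDK1 that activates AKT, had a mean of 5.08 FPKM in oEV-EMT and 5.16 FPKM in oEV-ctrl. *Pik3cd*, a catalytic subunit of PI3K, had 1.72 ± 0.33 and 1.27 ± 0.24 FPKM (SD, n = 3 each). The groups of *Grb14* and *Pik3cd* overlapped after median-of-ratios scaling.

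Of the other subunits and assembly factors of the mTOR complexes, 7 were tested, and 3 were separated and higher in oEV-EMT, against 18.1% of all tested genes. After median-of-ratios scaling 2 of the 7 were, against 9.82% of all genes, and this count by role was added after seeing the data. *Akt1s1*, encoding PRAS40, an inhibitor of mTORC1, had 5.40, 2.67 and 3.54 FPKM in oEV-EMT and 1.12, 2.05 and 1.20 FPKM in oEV-ctrl. Its log2 fold change was 0.97 (standard error 0.27; 95% interval 0.38 to 1.56; limma adjusted p = 0.164). All oEV-EMT values of *Akt1s1* stayed above all oEV-ctrl values in the 5 versions of the data compared. These were unscaled, median-of-ratios, upper quartile, and the sum of 1000000 with and without the most abundant unannotated entry. The other separated genes here were *Deptor*, another inhibitor of mTOR, at 0.53, and *Telo2*, a factor in the assembly of the complexes, at 0.60 on the log2 scale, both outside the rule for named genes and picked after their values were seen. *Mapkap1*, the mTORC2 subunit SIN1, was the most abundant, at 6.39 ± 1.07 and 6.26 ± 1.81 FPKM (SD, n = 3 each).

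*Rheb*, the GTPase that switches on mTORC1, was far more abundant than any of the 10 core genes, with 127, 210 and 226 FPKM in oEV-EMT and 187, 194 and 192 FPKM in oEV-ctrl. Its log2 fold change was -0.07 and changed sign between scalings, from -0.33 to 0.03. The Ragulator anchors mTORC1 at the lysosome in response to amino acids. Its subunit *Lamtor4* had 147, 135 and 155 FPKM in oEV-EMT and 73.9, 79.4 and 88.8 FPKM in oEV-ctrl. These levels differed by 0.85 on the log2 scale (standard error 0.19; 95% interval 0.43 to 1.26; limma adjusted p = 0.118). It was 1 of 2 separated genes among the 12 tested of the RAG and Ragulator group, or 16.7% beside 18.1% of all tested genes, and the group's median was -0.09 relative to all genes. After median-of-ratios scaling 2 of the 12 were higher and 3 lower, where all tested genes had 9.82% and 10.3%. The values of *Lamtor2*, the most abundant of this role, overlapped between the groups, at 182 to 308 FPKM and 191 to 231 FPKM.

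In the amino acid sensing branch, *Nprl3*, a subunit of GATOR1, which inhibits mTORC1, had 7.94, 5.58 and 3.62 FPKM in oEV-EMT and 2.78, 2.01 and 3.26 FPKM in oEV-ctrl. Its log2 fold change was 0.83 (standard error 0.28; limma adjusted p = 0.221), and 15.7% of its 50-base stretches are shared with *Mpg*, between which reads could be split. Of the 11 tested genes of this branch 3 were separated with higher values in oEV-EMT, or 27.3% beside the 18.1% of all tested genes. With median-of-ratios scaling 3 of the 11 were higher and 0 lower, where all tested genes had 9.82% and 10.3%. *Sec13*, also a component of nuclear pores and COPII coats, was the most abundant, at 215 ± 21.4 and 188 ± 46.5 FPKM (SD, n = 3 each). Among the outputs, *Eif4ebp1*, the translational repressor that mTORC1 inactivates by phosphorylation, had 288, 298 and 265 FPKM in oEV-EMT and 157, 135 and 160 FPKM in oEV-ctrl. Its log2 fold change of 0.91 (standard error 0.18; 95% interval 0.51 to 1.31) had the lowest adjusted p of the pathway list, 0.105 (limma), and 3 of the 15 tested output genes were separated with higher values, or 20%, near the 18.1% of all tested genes. After median-of-ratios scaling 1 of the 15 was higher and 1 lower. *Lamtor4*, *Nprl3* and *Eif4ebp1* stayed separated in all 5 of these versions of the data, the unscaled one included. *Rps6*, the ribosomal protein phosphorylated by S6 kinase, had 2096 ± 235 and 1726 ± 150 FPKM (SD, n = 3 each), and overlapped after median-of-ratios scaling. It shares 43.8% of its stretches with the pseudogene *Rps6-ps4*, which was listed at 446 to 591 FPKM, so some reads could belong to either.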

How the data were processed

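The libraries were prepared from polyadenylated RNA. Per the labels the authors used the mm10 build and StringTie; the aligner is not given in the sources used here. The authors deposited 1 value per gene and library. The values of a library summed to 1293175 to 1551567, not to the 1000000 of the TPM unit that the methods name, so the deposited values were taken as FPKM. The design had provided for FPKM.

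Symbols, positions and lengths came from GENCODE M21 (GRCm38), to which 55141 identifiers matched. log2(FPKM + 1) was fitted with limma 3.58.1 (R 4.3.3, trended and robust variance) over all genes with at least 1 FPKM in at least 3 libraries, with Benjamini-Hochberg adjustment, without scaling between libraries. On this scale changes of low genes are understated. The fit was tested on simulated data. Ratios were compared by exact permutation tests, and figures drawn with matplotlib 3.10.9 in Python 3.11.15. Named were the 10 genes and, in each of 8 pathway roles, the tested gene with the highest mean FPKM and the one with the largest change without overlap. The genes, lists and tests were chosen with earlier results of these data known. A gene was said to share sequence where GENCODE transcripts of another listed gene held identical stretches of 50 bases on either strand. Alternatives covered scaling, filter, pseudocount, variance model, replicate block, library weights, length trend and leaving out each library.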

Additional observations from a re-analysis of the deposited data

How the results depend on the processing

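With the filter at 1 FPKM in all libraries 4 genes passed both thresholds, and with libraries weighted by quality, chosen after seeing the data, 104 did (limma). With each library left out the number was 0 to 17, with 17 without oEV-ctrl 3, 4 without oEV-EMT 1 and 1 without oEV-EMT 3. None of the described genes that were tested in these fits was among them, the lowest adjusted p being 0.130 (limma, *Mlst8*, quality weights). *Igf1r* was tested in none of these fits. *Tsc1*, at 0.700 FPKM in oEV-EMT 3, was not tested with the filter at 1 FPKM in all libraries. The labels do not say whether the replicate numbers pair the samples. Deviations of same-numbered libraries correlated at 0.12, -0.04 and 0.04 across genes, and those of differently numbered ones at -0.13 to 0.12. Such correlations cannot decide whether pools shared a culture or batch. The replicate block gave 21 genes past the thresholds and 0 of the 9 tested genes described. A block cannot move a difference of group means here, since each number has 1 library per group. The number of the 10 genes without overlap was 1 after scaling to a sum of 1000000, and 0 to 3 with each library left out. It was 0 when the most abundant unannotated entry was left out of that sum. Of 157 refits of single genes, 16 changed the sign of a log2 fold change. After median-of-ratios scaling *Insr* was at -0.035 and *Mtor* at -0.093, and after upper quartile scaling *Insr* at -0.071, *Akt2* at -0.044 and *Mtor* at -0.16. *Akt1* was at 0.083 after scaling to a sum of 1000000 and at 0.036 with quality weights, where *Insr* was at -0.0036. With each library left out, *Igf1r* ran from -0.018 to 0.11, *Insr* from -0.079 to 0.17, *Akt1* from -0.17 to 0.21, *Akt2* from -0.014 to 0.34, *Mtor* from -0.053 to 0.30 and *Tsc2* from -0.57 to 0.18. *Mlst8*, *Rptor*, *Rictor* and *Tsc1* kept their sign in all refits. With each library left out *Mlst8* ran from 0.34 to 0.70, *Rptor* from 0.11 to 0.33, *Rictor* from 0.12 to 0.70 and *Tsc1* from 0.016 to 0.49. Relative to all genes *Rptor*, *Rictor* and *Tsc1* changed sign, with lowest values of -0.040, -0.048 and -0.12. The difference of the log2 ratio of *Igf1r* to *Insr* was -0.026 on log2(FPKM + 1), and that of *Rptor* to *Rictor* ran from -0.57 to 0.040 with each library left out. The median of the 9 genes relative to all genes stayed between -0.12 and 0.12, and that of the pathway list between 0.01 and 0.17. The causes were not tested. Read totals are not given, so no counting interval could be set, and *Igf1r* lay below the level tested.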
